A study of Mus musculus with 17 samples.

Results

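Transcription factor genes that pattern the diencephalon and midbrain were followed in P7 astrocytes of the cortex and of 3 sensory nuclei of the thalamus. The 10 listed genes are *Otx2*, *Otx1*, *En1*, *En2*, *Gata2*, *Gata3*, *Sox14*, *Pax7*, *Foxa1*, and *Foxd1*. They were found by symbol among the 26556 genes counted, and 9 of the 10 have a row. *Pax7*, a homeobox gene of the dorsal midbrain, was not analysed here.

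The data are RNA-seq counts of 17 libraries of astrocytes sorted by FACS from *Gfap::GFP* mice of the FVB strain at postnatal day 7, with 4 brains pooled in each library. All groups carry the same *Gfap::GFP* transgene, a reporter of astrocytes, and no group was treated. There are 4 libraries of the primary somatosensory cortex, 5 of the dorsolateral geniculate nucleus (dLG, visual), 4 of the ventral posteromedial nucleus (VPM, somatosensory), and 4 of the ventral part of the medial geniculate nucleus (MGv, auditory). Levels are CPM (counts of a gene relative to the size of its library) scaled by TMM, a factor that sets libraries of different composition on a common scale.

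OTX factors are homeodomain proteins that the embryo needs to form the forebrain and midbrain, and their caudal limit sets the position of the isthmic organizer between midbrain and hindbrain. Engrailed factors act on the midbrain side of this border. GATA2, GATA3, and SOX14 act in GABAergic neurons of the midbrain and diencephalon, FOXA1 in the floor plate and midbrain dopaminergic neurons, and FOXD1 in the prethalamus and hypothalamus. These roles are known from embryos and neurons and are background to the values of the sorted astrocytes.

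The members were selected on earlier results of these same libraries, in which *Otx2* stood among the genes higher in the thalamus. Their levels in thalamus and cortex are therefore a description with no test. The differences between nuclei were tested with edgeR over all genes, but they were also known in part, and are not independent support for the choice of genes. p-values measure the spread between pooled-brain libraries. In bulk RNA, a smaller number of expressing cells and less RNA in each cell cannot be told apart.

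Libraries held between 18213687 and 50366363 counts, and all but 1 held at most 21519981, so that 3 counts, taken here as the floor of detection, equal from 0.0596 to 0.165 CPM. The floor accounts for counting error alone. The library dLG c stood apart with 17749 genes detected, against 21052 to 23365 in the other 16, and was alone in its series of library numbers. By their leading digits, the numbers that the labels give to the other libraries form 2 series, called A (cortex c and d, dLG a and b, VPM c and d, and all MGv libraries) and B (cortex a and b, dLG d and e, and VPM a and b). The library dLG c had the highest level among dLG libraries for 6 of the 9 members. Some results on the dLG are given with and without it. The 10 astrocyte markers were present in every library, with a summed level between 6090 and 15710 CPM, and the 10 neuronal markers summed to between 606 and 2095 CPM. The 8 markers of the oligodendrocyte lineage summed to between 6385 and 10957 CPM.

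Promoter sequences of 8 of the 10 genes were matched in RefSeq (GRCm38.p6), from 250 bases before to 50 bases after the start. 3 are shown for the members whose level differs most between regions or nuclei, *Otx2* (start 3 of the 4 annotated, chr14:48665060-48665359, minus strand), *Foxd1* (chr13:98353995-98354294, plus strand), and *Sox14* (chr9:99876121-99876420, minus strand).
Otx2: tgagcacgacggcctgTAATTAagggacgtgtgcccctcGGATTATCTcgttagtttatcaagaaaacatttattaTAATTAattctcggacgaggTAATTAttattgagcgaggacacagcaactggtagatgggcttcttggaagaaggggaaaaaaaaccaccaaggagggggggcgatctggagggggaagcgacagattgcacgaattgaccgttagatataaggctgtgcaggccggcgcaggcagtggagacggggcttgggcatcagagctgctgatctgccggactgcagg
Foxd1: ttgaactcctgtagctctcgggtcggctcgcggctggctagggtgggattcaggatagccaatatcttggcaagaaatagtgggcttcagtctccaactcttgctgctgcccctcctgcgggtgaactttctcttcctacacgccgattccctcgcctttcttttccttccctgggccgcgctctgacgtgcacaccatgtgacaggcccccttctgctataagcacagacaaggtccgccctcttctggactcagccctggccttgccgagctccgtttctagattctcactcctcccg
Sox14: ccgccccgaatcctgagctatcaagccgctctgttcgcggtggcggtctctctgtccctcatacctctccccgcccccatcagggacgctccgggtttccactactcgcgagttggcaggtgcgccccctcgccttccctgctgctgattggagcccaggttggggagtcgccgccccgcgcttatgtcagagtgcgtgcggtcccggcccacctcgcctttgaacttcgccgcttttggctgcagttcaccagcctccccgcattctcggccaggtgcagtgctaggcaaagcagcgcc
Capitals mark matches, on either strand, to the bicoid-type core of OTX factors TAATCC, the homeodomain core TAATTA, the GATA core AGATAA, the forkhead core TGTTTAC, and CAGATG, an E-box bound by proneural factors. The *Otx2* sequence holds 3 matches to the homeodomain core, 1 to the bicoid-type core, and 1 to the GATA core. It has the most matches of the 4 *Otx2* starts, of which start 1 holds 1 homeodomain core, start 2 none, and start 4 1 GATA core and 1 E-box. In start 3, the bicoid-type and GATA cores overlap and show as a single run of capitals. Of 32544 promoters of this length, 5.29% hold TAATTA, 7.06% hold TAATCC, 11.2% hold AGATAA, 3.66% hold TGTTTAC, and 17.1% hold CAGATG. These shares count single promoters with at least 1 match, so they are no measure for the window with the most matches of 4. The *Foxd1* and *Sox14* windows hold none of these letters. A match describes the letters and is not a binding site, and the counts do not show which *Otx2* start was used.

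*Otx2* was read in every thalamic library and in only 1 cortical one, with a single count. Its level was 0 CPM in cortex a, b, and c and 0.0488 CPM in cortex d. It was 66.7, 73.3, 105, 77.3, and 64.8 CPM in dLG a to e, 34.6, 55.9, 41.6, and 35.6 CPM in VPM a to d, and 71.8, 70.9, 86.8, and 65.7 CPM in MGv a to d. The cortex and each nucleus did not overlap, and all VPM libraries lay below all libraries of the other two nuclei. The mean of the 13 thalamic libraries, 65.4 CPM ± 20 (SD), was at least 520-fold higher than the floor of 3 counts per library in the cortex. Without dLG c, the mean of the dLG was 70.5 CPM ± 5.79 (n = 4) rather than 77.4 ± 16.2 (n = 5).

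*Otx2* (ENSMUSG00000021848, chromosome 14, 48657677 to 48673819, minus strand, GRCm38) shares exonic bases with the antisense lincRNA *Otx2os1* (154 bases, 3.65% of its exonic length) and with *Gm49154* on its own strand (168 bases, 3.98%). The strand setting of the counting is not given in the sources used here. *Otx2os1* was at 0 counts in all 4 cortical libraries and between 16 and 156 counts in the 13 thalamic ones. By nucleus, its level was 4.15 CPM ± 1.91 (SD, n = 5) in the dLG, 1.86 ± 1.2 (n = 4) in the VPM, and 4.14 ± 1.05 (n = 4) in the MGv. Reads counted on *Otx2os1* thus had their lowest mean in the same nucleus as those of *Otx2*. The counts do not show the strand these reads came from, so they do not measure an antisense RNA apart from *Otx2*.

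*Otx1* (ENSMUSG00000005917, chromosome 11, 21994764 to 22002897, minus strand), the paralog that acts in the developing cortex and in deep-layer cortical neurons, was read in all 17 libraries. Its level was 36.1, 30.5, 43.2, and 34.6 CPM in cortex a to d. It was 32.0, 32.6, 49.2, 37.6, and 28.1 CPM in dLG a to e, 12.8, 30.7, 14.9, and 17.2 CPM in VPM a to d, and 44.7, 36.7, 64.4, and 45.9 CPM in MGv a to d. Cortex, dLG, and MGv overlapped, and 3 of the 4 VPM libraries lay below all others, with VPM b within the range of the dLG. The mean over the thalamus, 34.4 CPM ± 14.7 (SD, n = 13), was close to that of the cortex, 36.1 ± 5.29 (n = 4). Without dLG c, the mean of the dLG was 32.6 CPM ± 3.91 (n = 4) rather than 35.9 ± 8.17 (n = 5).

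Per kb of exon, the only scale on which different genes are compared here, *Otx2* was above *Otx1* in every thalamic library. The level of *Otx2* per kb was 18.3 CPM ± 3.83 (SD, n = 5) in the dLG, 9.93 ± 2.33 (n = 4) in the VPM, and 17.5 ± 2.15 (n = 4) in the MGv. *Otx1* was at 6.62 ± 1.51, 3.49 ± 1.49, and 8.84 ± 2.16 CPM per kb in the same nuclei. *Otx2* made up between 72.5 and 74.8% of the summed level of both genes in the dLG, between 70.0 and 78.1% in the VPM, and between 63.4 and 71.3% in the MGv. Its share was at most 0.181% in the cortex. The share in the MGv lay below that in the dLG in all libraries and overlapped that in the VPM, and no test was made of it.

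**Figure D1:**
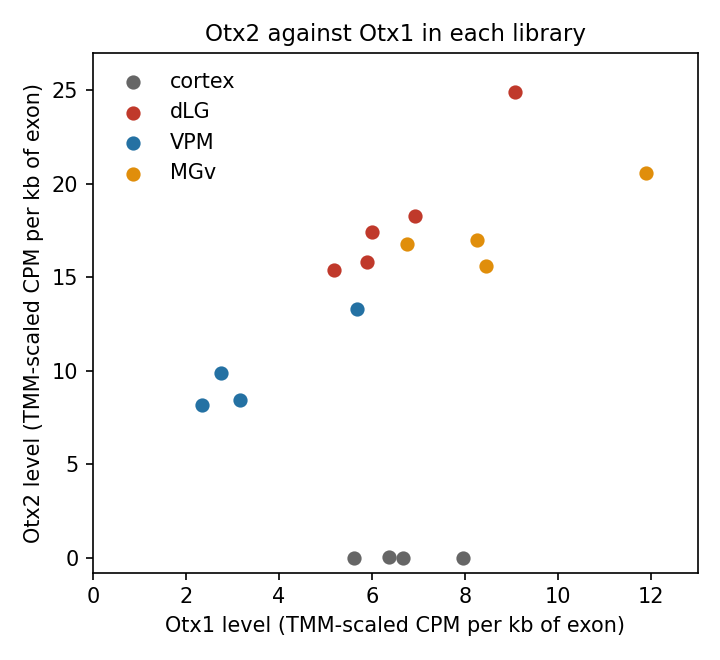
Level of *Otx2* (y axis) against *Otx1* (x axis) in each of the 17 libraries, both as TMM-scaled CPM per kb of exon, coloured by group. The 4 cortical libraries lie on the bottom of the plot at *Otx1* levels like those of the dLG, and 3 of the 4 VPM libraries lie to the left of all other libraries.

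*Foxd1* (ENSMUSG00000078302, chromosome 13, 98354242 to 98359305, plus strand), a forkhead gene of the prethalamus and hypothalamus, separated the dLG and VPM from the MGv. Its level was 27.5, 25.6, 38.2, 20.3, and 12.8 CPM in dLG a to e and 19.6, 18, 12.1, and 12.9 CPM in VPM a to d. It was 0.195, 2.05, 0.592, and 0.275 CPM in MGv a to d, and 0.126, 0.241, 0, and 0 CPM in cortex a to d. All dLG and VPM libraries lay above all MGv and cortical ones, and the MGv overlapped the cortex. The MGv values rest on 4 to 39 counts. Without dLG c, the mean of the dLG was 21.5 CPM ± 6.56 (SD, n = 4) rather than 24.9 ± 9.39 (n = 5).

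The engrailed genes *En1* (ENSMUSG00000058665, chromosome 1, 120602418 to 120607992, plus strand) and *En2* (ENSMUSG00000039095, chromosome 5, 28165694 to 28172166, plus strand) were low in the thalamus and lower still in the cortex. *En1* was at 6.34 CPM ± 1.72 (SD, n = 5) in the dLG, 6.48 ± 2.39 (n = 4) in the VPM, 5.42 ± 2.55 (n = 4) in the MGv, and 0.228 ± 0.211 (n = 4) in the cortex. The lowest thalamic library, MGv c, was at 3.11 CPM, and the highest cortical one at 0.42 CPM. *En2* was at 6.64 CPM ± 3.84 in the dLG, where dLG c was highest at 12.7 CPM, and at 5.13 ± 2.11 without that library. It was at 4.75 ± 1.70 in the VPM, 3.66 ± 1.18 in the MGv, and 0.619 ± 0.436 in the cortex. The lowest thalamic value of *En2*, 2.36 CPM in VPM b, was above the highest cortical one, 0.965 CPM. Both engrailed genes were thus read in every thalamic library, and their 3 nuclei overlapped.

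*Sox14* (ENSMUSG00000053747, chromosome 9, 99874106 to 99876170, minus strand), a gene of GABAergic neurons that include the interneurons of the dLG, was read in all dLG libraries. Its level there was 1.39, 6.83, 11.3, 3.35, and 2.77 CPM in dLG a to e, from 29 to 238 counts. It was 0, 0.105, 1.23, and 0 CPM in MGv a to d. The VPM held 2 counts in VPM c and none in the other 3 libraries, and the cortex held none in its 4 libraries. All dLG libraries lay above all others, although dLG a and MGv c were close. The mean of the dLG, 5.14 CPM ± 4.01 (SD, n = 5), was at least 40.9-fold higher than the floor of 3 counts per library in the cortex, and 3.58 ± 2.32 (n = 4) without dLG c.

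*Gata3* (ENSMUSG00000015619, chromosome 2, 9857078 to 9890034, minus strand), a zinc finger gene of the same neurons, followed the order dLG, MGv, and VPM at lower levels. It was at 1.00, 1.06, 4.24, 0.851, and 2.92 CPM in dLG a to e and at 0.875, 0.368, 0.394, and 0.826 CPM in MGv a to d. It was at 0, 0.274, 0, and 0 CPM in VPM a to d, and between 0 and 0.439 CPM in the cortex. The dLG lay above the VPM and cortex in all libraries and overlapped the MGv by 1 library, MGv a, which was above dLG d. The mean of the dLG was 2.01 CPM ± 1.51 (SD, n = 5), and 1.46 ± 0.978 (n = 4) without dLG c. The gene shares 5.83% of its exonic length with other annotated genes, of which 155 bases are those of the antisense *Gm13256*.

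*Gata2* (ENSMUSG00000015053, chromosome 6, 88193891 to 88207032, plus strand) and *Foxa1* (ENSMUSG00000035451, chromosome 12, 57540628 to 57546916, minus strand) were near the floor. *Gata2*, the paralog of *Gata3*, held at most 11 counts and 0.505 CPM in any library, and did not pass the filter on low counts in either fit. *Foxa1* was at 0 in all 4 MGv libraries. It held 4, 38, 12, and 5 counts in VPM a to d (0.186, 2.09, 0.58, and 0.24 CPM), and 13, 24, 0, 23, and 11 counts in dLG a to e. The dLG c library, highest among dLG libraries for 6 members, was the only dLG library without *Foxa1*. In the cortex, *Foxa1* held 1 count in all.

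**Figure D2:**
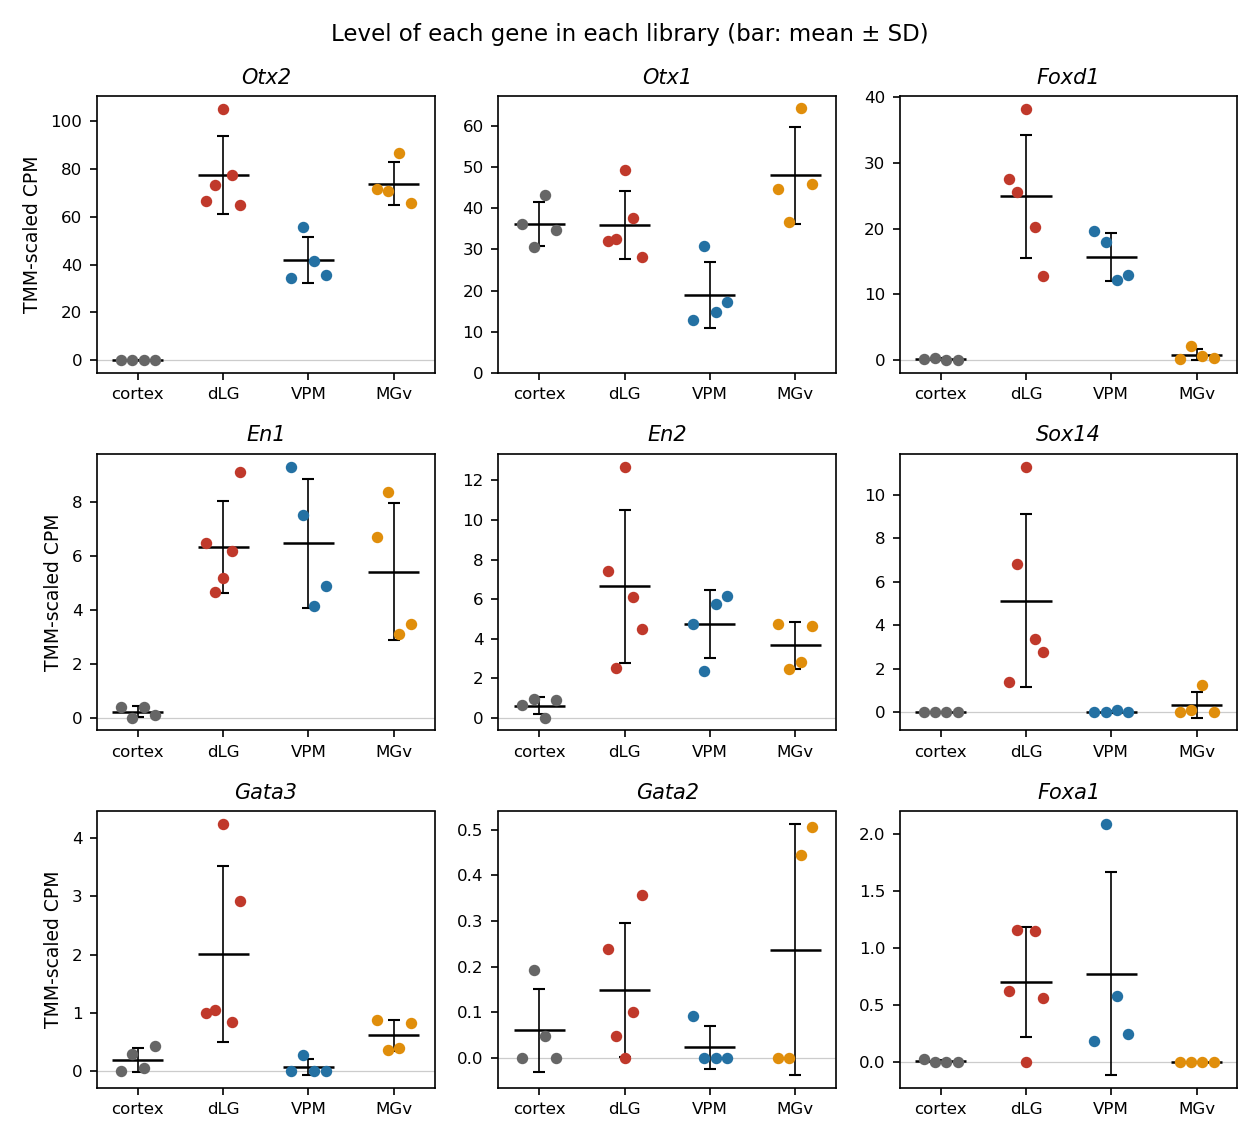
TMM-scaled CPM (y axes, each with its own range) of the 9 members in the 4 groups, with a point for each library in the order of its letter and bars for mean ± SD. *Otx2* is near 0 in the cortex, *Otx1* is not, *Foxd1* is above 12 CPM in the dLG and VPM and at most 2.05 CPM in the MGv, and *Sox14* is above 1.3 CPM in all dLG libraries.

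Read as a description, 3 of the 9 members, *Otx2*, *En1*, and *En2*, had their lowest thalamic library above their highest cortical one, beside 1.77% of the 17856 genes in the fit of the regions. The region contrast was known when the genes were chosen, and nothing is read from this count.

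The dLG and VPM were compared to ask whether the factors differ between first-order nuclei of different modality. In this comparison, 4 of the 8 members tested were higher in the dLG, beside 6.48% of 17319 genes, and none was higher in the VPM, beside 3.16%. Of these 4, *Gata3* and *Sox14* passed the filter on low counts only with their dLG libraries. The filter thus favoured this direction, and the count is not a fair match for the share over all genes. With at least 10 counts in every library, 2 members were higher in the dLG. *Otx2* was higher in the dLG by a log2FC of 0.86 ± 0.18 (SE, adjusted p = 0.0187), a ratio of means of 1.85. *Otx1* was higher by 0.90 ± 0.26 (adjusted p = 0.0592), *Gata3* by 4.81 ± 1.11 (adjusted p = 0.0297), and *Sox14* by at least 34.7-fold over the floor of 3 counts per library (adjusted p = 0.0172). For *Foxd1* the log2FC was 0.64 ± 0.44 (adjusted p = 0.415), and its approximate 95% interval ran from -0.23 to 1.5. The intervals of *En1* (-0.76 to 0.65), *En2* (-0.39 to 1.30), and *Foxa1* (-2.18 to 1.85) also held 0.

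The calls of *Otx2* and *Sox14* remained in all 20 and 19 alternatives in which the gene could be tested at the threshold of 0.1. Without dLG c, the log2FC of *Otx2* was 0.73 ± 0.16 (adjusted p = 0.0308). The call of *Otx1* was lost when the library number series was a covariate (0.78 ± 0.25, adjusted p = 0.126), and without dLG b (adjusted p = 0.104), dLG c (0.110), VPM a (0.185), VPM c (0.187), or VPM d (0.165), and its adjusted p is above the stricter threshold of 0.05. That of *Gata3* was lost without VPM c (adjusted p = 0.102), and its log2FC rose to 8.38 without VPM b, the only VPM library in which it was read. Within series A, *Otx2* was at 66.7 and 73.3 CPM in the dLG and 35.6 and 41.6 CPM in the VPM, and in series B at 64.8 and 77.3 CPM against 34.6 and 55.9 CPM. *Otx1* did not overlap within series A, with 32.0 and 32.6 CPM in the dLG against 14.9 and 17.2 CPM in the VPM, and overlapped within series B through VPM b. *Sox14* and *Gata3* were higher in the dLG in both series, with means of 4.11 against 0.0484 CPM and 1.03 against 0 CPM in series A, and of 3.06 against 0 CPM and 1.88 against 0.137 CPM in series B.

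Markers of cell types moved with the same comparison, in which 6.48% of all genes were higher in the dLG and 3.16% in the VPM. Of the 10 astrocyte markers, *Sox9*, *Gfap*, and *Aldh1l1* were higher in the dLG and *S100b* was higher in the VPM. Leaving out 1 library did not end the call of *Sox9*. It ended that of *Gfap* without VPM c (adjusted p = 0.102), that of *Aldh1l1* without dLG a, b, or c, MGv d, or VPM a, c, or d, and that of *S100b* without dLG b or c or any VPM library. With the library number series as covariate, *Aldh1l1* (adjusted p = 0.152) and *S100b* (0.193) also lost their calls. *Sox9*, a transcription factor of astrocytes, was at 713 CPM ± 141 (SD, n = 5) in the dLG, 379 ± 91.3 (n = 4) in the VPM, and 744 ± 105 (n = 4) in the MGv. *Gfap*, the gene that gives the reporter line its name, was at 12 CPM ± 4.75 in the VPM, and between 78.9 and 1336 CPM in the dLG. Its counts do not measure the reporter used to sort. The summed level of the 10 markers was between 7682 and 9057 CPM in the dLG and between 6221 and 8626 CPM in the VPM. The part of these markers in the differences of *Otx2* and *Otx1* was not tested.

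Of the 6 GABAergic markers, 4 (*Slc32a1*, *Gad2*, *Npy*, and *Sst*) were higher in the dLG than in the VPM, beside 6.48% of all genes. None was lower, beside 3.16%. The list summed to between 30.4 and 60.4 CPM in the dLG and between 25.0 and 27.4 CPM in the VPM. *Slc32a1*, the vesicular GABA transporter, was at 1.43 CPM ± 0.759 in the dLG and 0.0528 ± 0.0777 in the VPM. It passed the filter on low counts only with its dLG libraries. *Gad2*, a GABA-synthesizing enzyme, was at 6.92 ± 3.34 and 0.347 ± 0.211 CPM. *Gad1*, the other GABA-synthesizing enzyme and the largest part of the sum, was at 28.7 ± 8.07 and 22.9 ± 1.31 CPM and did not pass the test. The 4 calls became 2 without any 1 of the VPM libraries, and those of *Slc32a1* and *Gad2* remained. That of *Sst* was also lost without dLG c (adjusted p = 0.13), and that of *Npy* without dLG a (adjusted p = 0.118). With the library number series as covariate, *Sst* (adjusted p = 0.107) and *Npy* (0.117) lost their calls as well. Of the 6 microglial markers, *Cx3cr1*, *Csf1r*, and *Tmem119* were also higher in the dLG, with sums between 11 and 93.7 CPM against 6.50 and 10.9 CPM in the VPM. These 3 calls became 1 without VPM a or VPM c, and 5 without dLG c. The part of GABAergic neurons or microglia in the values of *Sox14* and *Gata3* was not tested.

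Between the dLG and MGv, 1 of the 8 members was higher in the dLG, beside 0.370% of genes, and none was higher in the MGv, beside 0.277%. It was *Foxd1*, with a log2FC of 5.01 ± 0.56 (SE, adjusted p = 3.1e-04) and a ratio of means of 31.9. *Foxd1* passed the filter on low counts through the dLG and VPM, so the count is not a fair match for that share. The call remained in all 19 alternatives, with log2FC between 4.69 and 6.13, and within series A the 2 dLG libraries were at 25.6 and 27.5 CPM against at most 2.05 CPM in the 4 MGv ones. *Otx2* differed by 0.07 ± 0.17 (adjusted p = 1), with an interval from -0.26 to 0.41. *Otx1* differed by -0.41 ± 0.25 (adjusted p = 1), with an interval from -0.90 to 0.08. For *En1* and *En2* the log2FC was 0.23 ± 0.36 and 0.86 ± 0.44.

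*Sox14* did not pass the test between dLG and MGv (3.93 ± 1.15, adjusted p = 0.272), although no libraries overlapped. It passed without MGv c, the library with 25 of the 27 counts of the MGv (7.03 ± 1.25, adjusted p = 0.0240), and with a replicate block (5.39 ± 0.88, adjusted p = 0.0286) or DESeq2 (adjusted p = 0.0193). *Foxa1*, at least 4.74-fold higher in the dLG than the floor of the MGv, did not pass either (adjusted p = 0.175). It passed without dLG c (adjusted p = 0.0499), in the fit of 4 groups (adjusted p = 0.0707), and with DESeq2 (adjusted p = 0.00608). *Gata3* was at 1.70 ± 0.90 (adjusted p = 0.994), and passed in none of the 19 alternatives.

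Between the VPM and MGv, *Foxd1* and *Foxa1*, 2 of the 8 members, were higher in the VPM, beside 4.53% of genes. *Otx1* and *Otx2* were higher in the MGv, beside 6.89%. *Foxd1* and *Foxa1* passed the filter on low counts through the dLG and VPM, so their count is not a fair match for the share of 4.53%. *Foxd1* differed by a log2FC of 4.37 ± 0.56 (adjusted p = 7.8e-04), and the ratio of means was 20.1. *Foxa1* in the VPM was at least 5.25-fold higher than the floor of 3 counts per library in the MGv (adjusted p = 0.0368). *Otx2* was lower in the VPM, with a log2FC of -0.78 ± 0.18 (adjusted p = 0.0251), and *Otx1* with -1.31 ± 0.27 (adjusted p = 0.0130). *Gata3*, with -3.10 ± 1.09 (adjusted p = 0.104), and *Sox14*, with an adjusted p of 0.182, did not pass.

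The calls of *Otx1*, *Otx2*, and *Foxd1* remained in all 20, 20, and 19 alternatives. *Foxa1* was past the threshold in 18 of 19, and DESeq2 gave it no adjusted p. *Gata3* passed with DESeq2 (adjusted p = 0.0248), with the library number series (0.0597), and without VPM b (0.0182), dLG c (0.0687), dLG d (0.0957), or dLG e (0.0998). *Sox14* passed with DESeq2 (adjusted p = 0.0763), and its log2FC moved from -3.43 to -0.32 without MGv c and to -5.77 without VPM c. Within series A, *Otx2* was at 35.6 and 41.6 CPM in the VPM and between 65.7 and 86.8 CPM in the MGv, and all MGv libraries belong to that series. As against the dLG, *Sox9* and *Gfap* were lower in the VPM than in the MGv and *S100b* was higher, as was the gap junction gene *Gja1*, and the same 3 microglial markers were higher in the MGv. The call of *Gja1* was lost without VPM c (adjusted p = 0.129), and the 3 microglial calls became 1 without MGv a, MGv c, VPM a, VPM b, or VPM c. With the library number series as covariate, *Tmem119* (adjusted p = 0.131) and *Csf1r* (0.135) lost their calls. The part of these markers in the values was not tested.

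**Figure D3:**
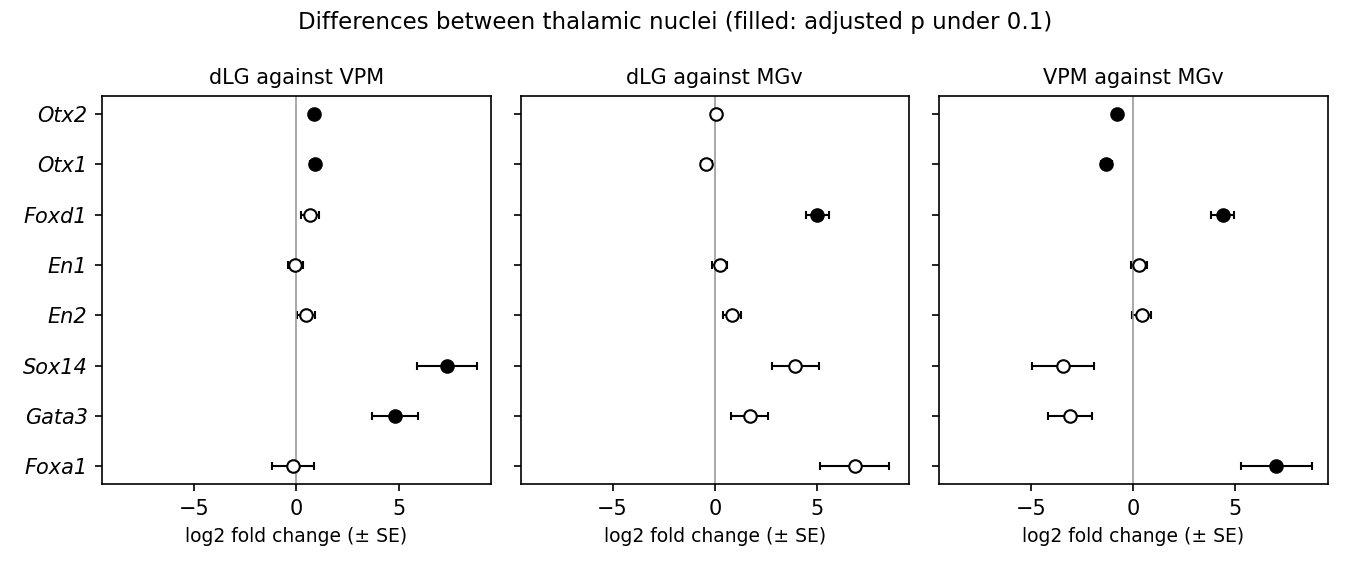
log2 fold change between pairs of nuclei (x axes, first nucleus over second, ± SE) for the 8 members tested, with filled points for an adjusted p under 0.1. *Foxd1* is filled in both comparisons with the MGv, *Otx2* and *Otx1* in both with the VPM, and the fitted values of *Sox14* and *Foxa1* against a nucleus at the floor depend on the prior count and are not bounds.

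In the order of their means over all libraries, *Otx2* followed dLG, MGv, and VPM, of which the first pair overlapped and the VPM lay apart. Without dLG c the dLG mean of *Otx2*, 70.5 CPM, was below that of the MGv, 73.8 CPM, with a log2FC of -0.06, and the order was that of *Otx1*. *Otx1* was ordered MGv, dLG, and VPM, where again only the comparisons with the VPM passed the test. *Foxd1* was ordered dLG, VPM, and MGv, of which dLG and VPM overlapped. *Sox14* and *Gata3* had their highest mean in the dLG and their lowest in the VPM, and only dLG against VPM passed the test. For *Sox14*, the MGv mean above that of the VPM rests mainly on MGv c. *En1* and *En2* had no pair past the test.

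The other genes known for patterning next to these factors were counted in lists that leave out the members. These lists were chosen with earlier results of these data known, so their counts and medians are not independent support. Of 24 genes of the isthmic organizer and midbrain, 21 were in the files and 9 were tested between nuclei. Between dLG and VPM, 3 were higher in the dLG, beside 6.48% of all genes tested, and none in the VPM, beside 3.16%. The median log2FC was 0.89 beside 0.01 over all genes. Without VPM a, VPM c, or VPM d, 1 was higher in the dLG. *Sp5*, a target of WNT signalling, was one of them (2.42 ± 0.33, adjusted p = 0.00159). It was also higher in the dLG than in the MGv (1.68 ± 0.32, adjusted p = 0.0260). That call was lost without MGv b (adjusted p = 0.103) or MGv c (0.107), and with the library number series as covariate (0.147). Between VPM and MGv, none was higher in the VPM, beside 4.53% of all genes, and 4 were higher in the MGv, beside 6.89%. The median log2FC was -0.86 beside -0.04 over all genes. The 4 were *Pax3*, *Sall1*, *Gbx2*, and *Meis2*. *Meis2* lost its call without dLG a or b, MGv b, c, or d, or VPM a, c, or d.

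*Gbx2* is the counterpart of *Otx2* on the hindbrain side of the isthmus and is also a gene of the early thalamus. It was highest in the MGv, with 17 CPM ± 10.1 (SD, n = 4), against 1.08 ± 1.16 (n = 5) in the dLG, 1.01 ± 0.437 (n = 4) in the VPM, and 0.0683 ± 0.137 (n = 4) in the cortex. The log2FC was -3.96 ± 0.78 for the dLG against the MGv (adjusted p = 0.0329) and -4.03 ± 0.86 for the VPM against the MGv (adjusted p = 0.0158). The first call was lost without dLG b (adjusted p = 0.125) or MGv d (0.156). *Pax3*, a homeobox gene of the dorsal neural tube and paralog of *Pax7*, was at 16.8 ± 9.30 CPM in the MGv, 2.65 ± 1.82 in the dLG, and 0.501 ± 0.445 in the VPM. It passed the test between VPM and MGv (-5.00 ± 1.01, adjusted p = 0.0121). Both genes thus had their highest mean in the nucleus where *Foxd1* was lowest.

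Of 18 genes of the hypothalamus and prethalamus, 13 were in the files and 5 were tested between nuclei. Between dLG and MGv, 2 were higher in the dLG, beside 0.370% of all genes, and none in the MGv, beside 0.277%. The median log2FC of the list was 4.61. *Sp9*, a zinc finger gene of GABAergic progenitors, was at 59.6 CPM ± 18.4 in the dLG, 2.43 ± 1.36 in the MGv, and 0.428 ± 0.302 in the VPM. *Gsx2*, a homeobox gene of ventral forebrain progenitors, was at 9.63 ± 2.74 and 8.83 ± 0.899 CPM in the dLG and VPM and at 3.27 ± 0.526 CPM in the MGv, and was higher in the VPM than in the MGv by 1.46 ± 0.27 (adjusted p = 0.00771). *Foxb1*, a forkhead gene of the mammillary region and thalamus, was lower in the VPM, at 19.3 ± 9.84 CPM, than in the dLG, at 65.2 ± 23.1 (adjusted p = 0.00941), and the MGv, at 52.6 ± 10.1 (adjusted p = 0.0203), and was at 0 in the cortex. Between VPM and MGv, 2 of the 5 were higher in each nucleus, beside 4.53% of all genes in the VPM and 6.89% in the MGv. The 2 in the VPM became 1 without MGv b, MGv d, VPM a, VPM c, or VPM d. Against the cortex, 1 of the 8 tested was higher in the thalamus, beside 5.45% of the 17856 genes tested, and 4 were lower, beside 5.93%, with the interneuron genes *Dlx1* and *Dlx2* among the lower ones (log2FC of -7.15 and -6.69).

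Of 19 genes of forebrain patterning, 18 were in the files, 15 were tested between regions, and 14 between nuclei. Against the cortex, 9 were higher in the thalamus, beside 5.45% of all genes, and 4 were lower, beside 5.93%. The higher ones included the Iroquois homeobox genes *Irx2*, *Irx5*, and *Irx1* (log2FC of 6.39, 8.76, and 4.96). Between dLG and VPM, 4 were higher in the dLG, beside 6.48% of all genes, and none in the VPM, beside 3.16%. They were *Lhx9* (3.67 ± 0.50), *Olig3* (4.47 ± 0.81), *Wnt3* (1.13 ± 0.21), and *Six3* (1.42 ± 0.34), the last of which lost its call without VPM d (adjusted p = 0.110). *Six3*, a repressor of WNT genes in the anterior neural plate, was at 1.42 CPM ± 0.646 in the MGv, 10.7 ± 2.90 in the VPM, and 29.2 ± 10.4 in the dLG, an order also seen in *Wnt3* (12 ± 4.31, 27.3 ± 2.03, and 60.6 ± 11.3 CPM). Between VPM and MGv, 2 were higher in the VPM, beside 4.53% of all genes, and 7 in the MGv, beside 6.89%. Among the 7 were *Irx3* (-1.64 ± 0.19, adjusted p = 4.0e-04) and *Irx5* (-1.24 ± 0.19, adjusted p = 0.00253). *Irx2*, also among them, was near the threshold (-0.52 ± 0.18, adjusted p = 0.0988) and kept its call in only 9 of 20 alternatives.

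**Figure D4:**
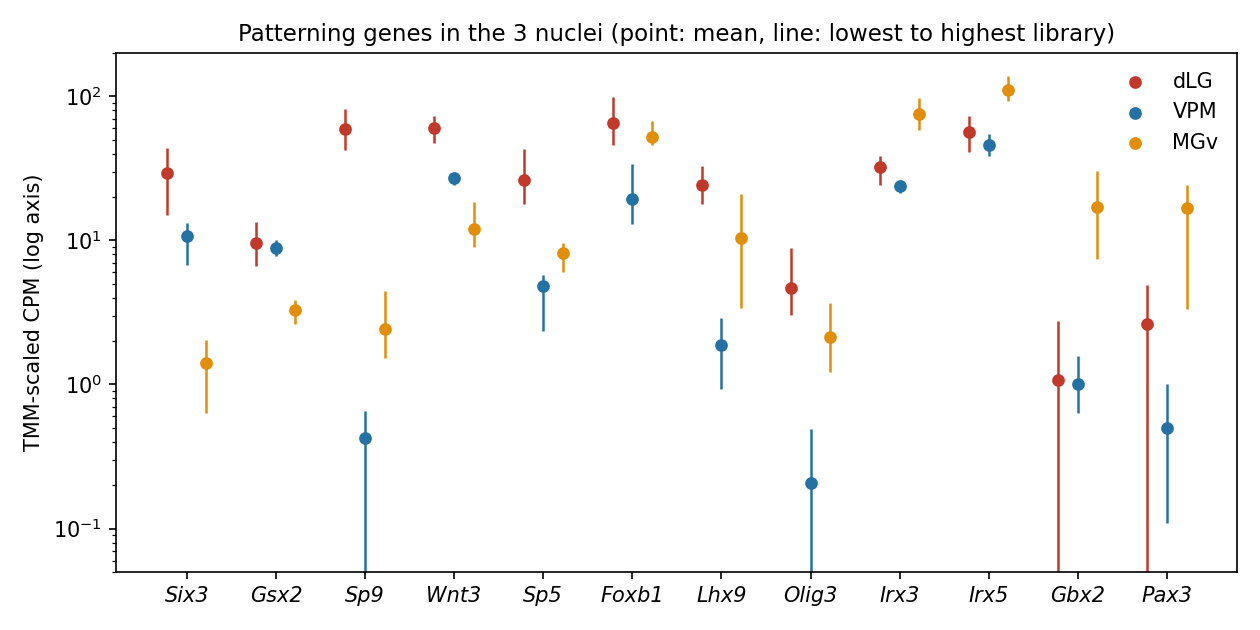
TMM-scaled CPM (log y axis, cut at 0.05 CPM) of 12 patterning genes in the 3 nuclei, with points for means and lines from the lowest to the highest library. *Six3*, *Wnt3*, and *Gsx2* are lowest in the MGv, *Foxb1*, *Lhx9*, and *Olig3* are lowest in the VPM, *Sp9* and *Sp5* are highest in the dLG, and *Irx3*, *Irx5*, *Gbx2*, and *Pax3* are highest in the MGv.

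Of 19 partners in GABAergic neurons of the midbrain and diencephalon, 15 were tested between nuclei. Between dLG and VPM, 5 were higher in the dLG, beside 6.48% of all genes, and 1 in the VPM, beside 3.16%. The last was *Nkx2-2*, which is outside the naming rule and lost its call without dLG b, c, or e or VPM a, c, or d. Its call was also lost with the library number series as covariate (adjusted p = 0.151). The 5 became 3 without VPM a, b, or c and 2 without VPM d. Of the 5, 4 are also among the GABAergic markers above, and the other was *Six3*. Between dLG and MGv, *Six3* was the only gene past the test, and was higher in the dLG, beside 0.370% of all genes. The members' closest family relatives were counted in a list of 19 genes, of which 10 were in the files and 8 were tested. *Sox2* and *Sox1*, HMG-box genes of neural progenitors and glia, were higher in the dLG than in the VPM (0.62 ± 0.14 and 1.27 ± 0.37), beside 6.48% of all genes. The genes *Sox2*, *Sox1*, *Sox3*, *Pax3*, and *Gbx2*, 5 of the 8, were higher in the MGv than in the VPM, beside 6.89%. The call of *Sox2* between dLG and VPM was lost without VPM d (adjusted p = 0.109) and that of *Sox1* without dLG b, c, or e or VPM a, c, or d, and the 5 between VPM and MGv became 3 without MGv b, VPM a, VPM c, or VPM d. With the library number series as covariate, *Sox1* between dLG and VPM (adjusted p = 0.12) and *Sox3* between VPM and MGv (0.13) lost their calls. *Sox2* was at 283 CPM ± 27.9 in the VPM, 442 ± 52.2 in the dLG, and 482 ± 92.1 in the MGv.

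Genes with the most similar pattern were ranked by Pearson's r of log2(CPM + 0.5) over the 13 thalamic libraries, among the 17319 genes tested. The libraries share their nucleus and number series, and r is given as a description. For *Otx2* the 3 highest were *Sox9* (r = 0.97), *Fmo1* (0.96), and *Klf15* (0.94), and for *Otx1* they were *Plscr1* (0.95), *Fmo1* (0.94), and *Rfx2* (0.94). *Sox9*, *Fmo1*, and *Klf15* were as high in the cortex as in the dLG, at means of 707, 111, and 164 CPM against 713, 111, and 157 CPM, whereas *Otx2* was not. For *Foxd1* the 3 highest were *Cyp4f15* (0.96), *Gsx2* (0.96), and *Zic2* (0.93), which were likewise read in the cortex.

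For *Sox14* the most similar genes were *Nkd1* (r = 0.95), an inhibitor of WNT signalling with 166 CPM in the dLG and at most 81.2 CPM as the mean of another group, *Chrna6* (0.93), a nicotinic receptor subunit with a mean of 1.83 CPM in the dLG and 0 in the cortex and VPM, and *Cldn3* (0.93). For *Gata3* they were *Slc16a11* (0.95), *Ralgps1* (0.94), and *Pi16* (0.94). The engrailed genes had lower values, with *Ccdc59* (0.88), *Rbm34* (0.88), and *Zcrb1* (0.87) for *En1* and *Tspan4* (0.87), *Nfil3* (0.86), and *9930012K11Rik* (0.84) for *En2*. *Fmo1* was the only gene among the 3 nearest of more than 1 member.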

How the data were processed

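RNA-seq was analysed in 17 libraries, grouped by their labels. The authors trimmed adapters, mapped the reads to GRCm38.p6 with STAR (2.7.0d), counted them on genes of Ensembl release 95 with featureCounts (Subread 1.6.4), and deposited raw counts per gene without normalization. Genes were matched to GENCODE M21. Genes were filtered with filterByExpr, scaled by TMM, and tested with the robust quasi-likelihood test of edgeR (4.0.16, R 4.3.3), in a fit of thalamus and cortex and a fit of the 3 nuclei, with Benjamini-Hochberg adjustment over all genes tested and a threshold of 0.1. SEs come from the log2FC and its F statistic. The test was also run on simulated counts, and its outcome is not given here. They were drawn independently for each library, with no series effect, outlying library, or group at 0, and do not cover those settings. Folds against a group with no library above 3 counts are lower bounds against 3 counts per library.

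The members and the gene lists were chosen with earlier results of these data known. The named genes are all members, at most 4 called genes with the lowest p of each list and comparison, the 3 genes most similar to a member with a group mean of at least 1 CPM, overlapping genes, and markers that move with a result. Some genes that this rule names are not reported here. The alternatives were DESeq2 (1.42.0), its size factors, no filter, at least 10 counts in every library, a threshold of 0.05, a replicate block, the library number series as covariate, a fit of 4 groups, and leaving out each library. The replicate letters are shared between groups, and no source says that libraries of the same letter came from the same animals. No pair of replicates agreed within sampling noise. The meaning of the library number series is not given in the labels. All MGv libraries are in 1 series, which also holds 2 dLG and 2 VPM libraries.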

Additional observations from a re-analysis of the deposited data

Results flagged for a closer look

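The level of each member was examined in each group of 4 or 5 libraries for a library far from the others (Dixon's ratio of the gap to the range), in 34 gene and group combinations. There were 6 flags. About 1 in 20 groups is flagged by chance where values vary freely, but a group with all but 1 library at 0 is always flagged, which holds for 5 of the 6. *Sox14* was at 1.23 CPM in MGv c, from 25 counts, against 0 to 0.105 CPM in the other MGv libraries. *Gata3* was at 0.274 CPM in VPM b, from 5 counts, against 0 in the others. The other 4 rest on 1 or 2 counts in a group otherwise at 0, and are *Otx2* at 0.0488 CPM in cortex d, *Gata2* at 0.0928 CPM in VPM a, *Sox14* at 0.0967 CPM in VPM c, and *Foxa1* at 0.021 CPM in cortex a. The library dLG c, although highest for 6 members, was not flagged for any of them.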

How the results depend on the processing

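Counts of genes past the threshold moved most with the processing. With DESeq2, genes higher in the dLG than in the VPM numbered 1891 and lower ones 997, those of dLG against MGv 165 and 125, those of VPM against MGv 1232 and 1836, and those higher in the thalamus 1617. A threshold of 0.05 left 511 and 194 genes between dLG and VPM, 346 and 612 between VPM and MGv, and 612 higher in the thalamus. With the library number series they were 586 and 228 for dLG against VPM and 39 and 25 for dLG against MGv. In the fit of 4 groups, 1029 were higher in the VPM than in the dLG, 102 and 81 differed between dLG and MGv, and 1322 were higher in the VPM than in the MGv. Leaving out 1 library gave 253 to 1827 and 104 to 1320 genes for dLG against VPM (lowest without VPM c, highest without dLG d), 38 to 72 and 28 to 61 for dLG against MGv, 268 to 1229 and 444 to 1769 for VPM against MGv (lowest without VPM a, highest without dLG c), and 523 to 1196 and 616 to 1224 for the regions. The cause was not tested.

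With a replicate block, 705 genes were higher in the dLG than in the VPM and 1206 in the VPM than in the MGv, and 2 members rather than 1 were higher in the dLG than in the MGv. Only 3 of the 12 same-letter pairs of thalamic libraries had deviations that correlated above 0.1 (r between -0.09 and 0.27). Weak correlation cannot decide whether libraries of the same letter came from the same brains. The main fits treat the libraries as unpaired. The number of members higher in the dLG than in the VPM was 2 with at least 10 counts in every library, a filter that leaves 4 members, and 2 to 4 without 1 library. Those higher in the dLG than in the MGv were 3 with DESeq2, 2 in the fit of 4 groups, 0 with that filter, and 1 to 2 without 1 library. For VPM against MGv, DESeq2 gave 1 higher in the VPM and 4 in the MGv (*Foxa1* had no adjusted p there), the filter 0 in the VPM, and leaving out 1 library 2 and 2 to 3.

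Signs turned only for values that passed no test. *En1* between dLG and VPM was at 0.06 with the series, between -0.24 and 0.17 without 1 library, and above 0 at 0.03, 0.01, 0.17, and 0.02 without dLG b, dLG c, VPM a, and VPM b. *Foxa1* there was at 0.31 with the series, between -0.49 and 1.01 without 1 library, and above 0 at 0.16 and 1.01 without dLG c and VPM b. *Otx2* between dLG and MGv was at -0.12 with the series and -0.06 without dLG c. *En1* was at -0.06 for dLG against MGv and -0.12 for VPM against MGv with the series. Of 490 refits of members between nuclei, 457 kept their direction and their side of the threshold, and all 225 alternative mean levels stayed within 1 SD. Of 3168 counts over gene and marker lists, 2839 stayed within 1.5 times. The nearest genes by similarity changed with rank correlation or with all 17 libraries. Counts of 3 or fewer reads limit *Gata2*, *Foxa1*, *Gata3*, and *Sox14* in the groups where they are low.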

Other observations

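Further lists for neighbouring domains, also chosen with earlier results known, were counted in the same way. Of 12 genes of midbrain dopaminergic neurons, 7 were tested between nuclei. *Aldh1a1*, an enzyme of retinoic acid synthesis, was higher in the VPM, at 34 CPM ± 8.19 (SD, n = 4), than in the dLG, at 6.92 ± 5.17 (n = 5, adjusted p = 0.0608). *Slc18a2*, the vesicular monoamine transporter, was higher in the dLG, at 66.7 ± 16.3 CPM, than in the VPM, at 27 ± 7.64 (adjusted p = 0.0720). The call of *Aldh1a1* was lost without dLG b, dLG e, or any VPM library, and that of *Slc18a2* without dLG b, MGv d, or any VPM library. *Slc18a2* also lost its call with the library number series as covariate (adjusted p = 0.107). Against the cortex, 2 of the 7 were higher in the thalamus, beside 5.45% of all genes, and 1 was lower, beside 5.93%. *Ret*, the receptor of GDNF, was higher in the thalamus than in the cortex by a log2FC of 2.97 ± 0.46 (adjusted p = 2.2e-04). The lower one was *Nr4a2*, a nuclear receptor, with -1.72 ± 0.57 (adjusted p = 0.0740), a call lost without cortex a, cortex d, dLG a, dLG b, or MGv b. It was also lost with the library number series as covariate (adjusted p = 0.103).

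Of 14 hindbrain genes, 8 were in the files and 4 were tested between nuclei. *Egr2*, a gene of the rhombomeres that is also an immediate early gene, was at 8.66 ± 7.13 CPM in the VPM, 45.7 ± 12.6 in the dLG, and 66.4 ± 32.7 in the MGv, and was lower in the VPM than in the dLG (adjusted p = 0.0178) and the MGv (adjusted p = 0.00545).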
